A study of Mus musculus with 4 samples.

Results

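The genes described here encode the subunits of the 5 complexes of oxidative phosphorylation, 82 of them in the nuclear genome and 13 in the mitochondrial genome. They were chosen by symbol: protein-coding rows of the deposited table whose names follow the mouse symbols for complex I to V subunits and whose mean over the 4 libraries was at least 10. In all 95 genes were kept, of 97 protein-coding rows with such names and 48709 rows in the table. The rows that fell below the minimum were Cox8c, listed at 0 in every lung, and Cox7b2, at 2 and 0 in mutant and 1 and 1 in wild-type libraries. A further 6 rows with such names are processed pseudogenes and were left out.

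RNA came from the left lung lobe of C57BL/6 mice on postnatal day 1, from 2 mice homozygous for the SL allele of Ryk (RykSL/SL, called mutant) and 2 wild-type mice, with no treatment. Ryk is a receptor for WNT ligands, and the labels describe neither the change that SL makes nor the sex or litter of the mice. The comparison asks how the newborn lung differs between the genotypes. Each lung is a separate mouse, with 2 per genotype. Below, values are normalized read counts, given for mutant replicates 1 and 2 and then for wild-type replicates 1 and 2. Library totals of these values lay between 18658239 and 19987634. Ryk itself stood at 2757 and 2203 against 2528 and 2525 (log2 difference -0.04, limma adjusted p = 0.926). Mutant replicate 1 had 24836 normalized counts of Xist, the RNA of the inactive X chromosome, against 9, 7 and 23 in the other lungs. It had 56 of the Y-linked Ddx3y against 3769, 2328 and 2197. Going by these RNAs, mutant replicate 1 was female and the other lungs male. Differences between the mutant lungs therefore cannot be told apart from differences of sex. Sex was also unbalanced between the genotypes, and the genotype differences below were not adjusted for it. Markers of lung were abundant, with Sftpc between 135559 and 220945 and Scgb1a1 between 35648 and 46415.

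Oxidative phosphorylation takes electrons from NADH at complex I and from succinate at complex II, passes them through coenzyme Q, complex III and cytochrome c to oxygen at complex IV, and uses the proton gradient built on the way to make ATP at complex V. Complex II is made of nuclear-encoded proteins alone, whereas the core of each other complex includes proteins encoded in mitochondrial DNA, so its assembly draws on both genomes. Several complex IV subunits exist as isoforms, some made mainly in heart and skeletal muscle, and Cox4i2 is an isoform known for its expression in lung. Among the names kept, Atp5s and Atp5sl follow the pattern but encode a coupling factor of ATP synthase and a complex I assembly protein. Ndufa4 and its relative Ndufa4l2 were placed with complex IV, where NDUFA4 is now known to sit.

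Promoters of nuclear subunit genes are known for binding sites of the transcription factor NRF1. Stretches before the start site are shown from RefSeq on GRCm38.p6 for 3 genes picked because they hold that motif and for Cox8b, a muscle isoform without it. Atp5g1 and Cox5a, described below, held none of the motifs searched, and 17 of the 68 genes with a window held the NRF1 letters. Each line gives the 250 bases before the start, 5' to 3' on the gene's strand. Capitals mark matches, on either strand, to GCGCA, any base and GCGC for NRF1, to CCGGAAG for ETS factors such as GABPA and to CAGCTG, an E-box found in muscle promoters.
Ndufs6, chr13:73328483-73328732, minus strand: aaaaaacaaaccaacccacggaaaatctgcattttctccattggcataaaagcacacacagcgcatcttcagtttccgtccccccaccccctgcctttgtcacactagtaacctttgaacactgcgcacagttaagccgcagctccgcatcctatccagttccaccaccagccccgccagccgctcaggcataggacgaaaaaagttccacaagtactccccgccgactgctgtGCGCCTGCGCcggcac
Atp5k, chr5:108434400-108434649, minus strand: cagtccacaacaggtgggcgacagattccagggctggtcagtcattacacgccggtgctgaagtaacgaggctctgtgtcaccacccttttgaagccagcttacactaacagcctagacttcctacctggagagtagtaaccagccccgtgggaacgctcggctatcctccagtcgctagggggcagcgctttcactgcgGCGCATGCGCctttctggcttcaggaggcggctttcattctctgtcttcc
Cox6a1, chr5:115348959-115349208, minus strand: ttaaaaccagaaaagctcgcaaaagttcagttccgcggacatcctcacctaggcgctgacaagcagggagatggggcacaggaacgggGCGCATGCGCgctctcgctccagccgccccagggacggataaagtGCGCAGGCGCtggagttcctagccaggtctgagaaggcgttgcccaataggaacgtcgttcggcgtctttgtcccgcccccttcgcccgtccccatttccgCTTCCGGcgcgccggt
Cox8b, chr7:140900447-140900696, minus strand: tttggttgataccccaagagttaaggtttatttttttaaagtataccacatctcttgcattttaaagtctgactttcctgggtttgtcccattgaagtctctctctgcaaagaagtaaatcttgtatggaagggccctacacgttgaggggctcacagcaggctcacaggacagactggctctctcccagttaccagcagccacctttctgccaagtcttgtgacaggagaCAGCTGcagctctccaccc
Ndufs6, a complex I subunit gene, held an NRF1 match that began 16 bases before the start. The match in Atp5k, for a small subunit of ATP synthase, began 50 bases before it. Cox6a1, the broadly expressed isoform of its complex IV subunit, held NRF1 matches that began 162 and 117 bases before the start and an ETS match at 16. In the bases shown for Cox8b, a muscle isoform, the only match was the E-box at 19 bases. Its full window held 2 E-box matches, since the windows counted next also take in bases after the start. Further matches there, as in Atp5k and Ndufs6, are not marked. Promoter windows, each 300 bases with 50 after the start, were found for 68 of the 82 nuclear members, in 74 windows. The NRF1 letters occurred in 24.3% of these windows, in 4.59% of all 32817 windows and in 8.82% of the 14153 windows of protein-coding genes tested. The ETS letters occurred in 21.6%, 8.86% and 15.4% in the same order, and AAGATGGC, for YY1, in 16.2%, 2.74% and 3.84%. The muscle E-box occurred in 8.11% of the members' windows and 16.3% of all windows, and CTA, any 4 bases and TAG, for MEF2, in 1.35% and 3.69%. No overlap between motifs was removed, and a match of letters does not show binding.

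No subunit gene passed the test between the genotypes: 0 of 95 had an adjusted p under 0.05 (limma on log2(value + 1) across all 18436 genes with a mean of at least 10, Benjamini-Hochberg adjustment). Over all genes tested, 2.39% passed, 1.47% higher and 0.917% lower, so a count of 0 among 95 is near the background. At an unadjusted p under 0.05 there were 14 members, all nuclear, beside 20.1% of all genes. The smallest adjusted p was 0.131 and the median standard error of a member's log2 difference was 0.18.

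The nuclear and the mitochondrial members lay on opposite sides of 0. The nuclear members had a median log2 difference, mutant minus wild type, of -0.24, with 73 of 82 below 0, where all genes tested had a median of -0.02 and 51.7% below 0. The 13 mitochondrially encoded members had a median of 0.15, and each of the 13 was above 0, as were 9 after quantile normalization and 12 with equal library totals. With equal totals the median of all genes moved to -0.09 that of the nuclear members to -0.32 and that of the mitochondrial members to 0.07. With mutant replicate 1 left out, 56 of the 82 nuclear members were below 0. In 46 of 82 nuclear members both mutant lungs lay below both wild-type lungs, which was so for 26.9% of all genes, and in 3 both lay above, which was so for 25.7%. Among the mitochondrial members the mutant lungs were both lower in 0 and both higher in 6. Against the wild-type mean, the nuclear members had medians of -0.29 (mutant replicate 1) and -0.21 (mutant replicate 2), while the wild-type lungs differed from each other by a median of -0.09, replicate 2 minus replicate 1. For the mitochondrial members the same medians were 0.14, 0.15 and 0.02. These are bulk samples, so a change in cell makeup and a change of these RNAs in each cell cannot be told apart.

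**Figure D1:**
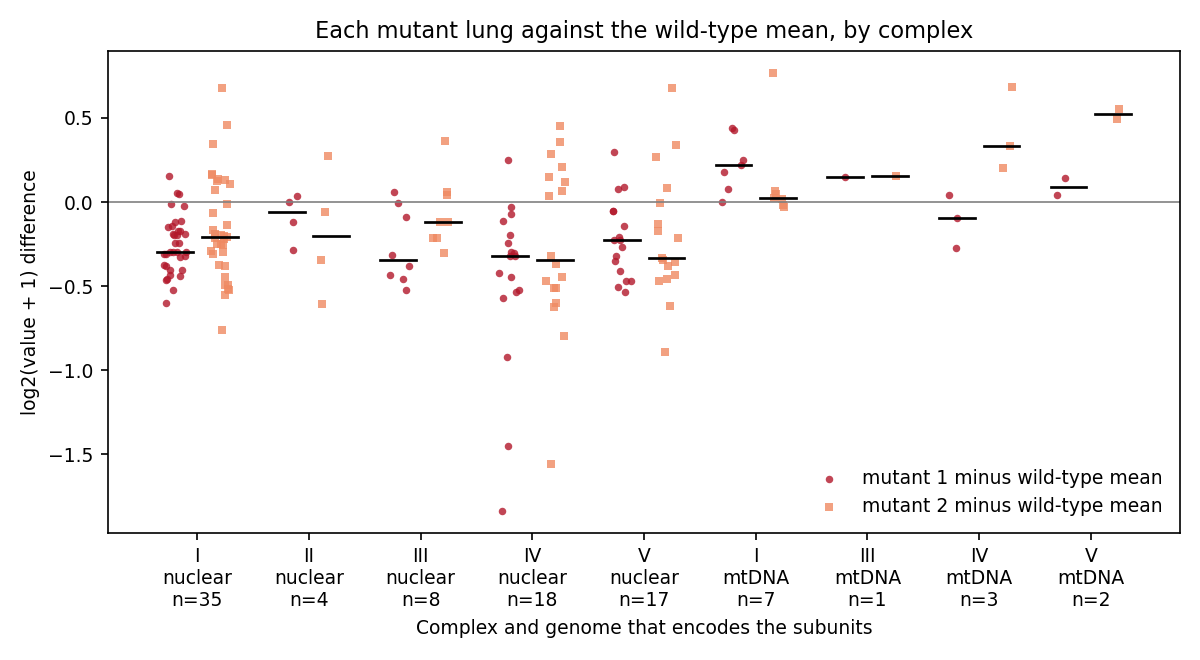
Log2(value + 1) difference of each mutant lung from the mean of the wild-type lungs, for every member by complex and encoding genome; each point is a gene and each black line a median. Nuclear medians lie below 0 in every complex for both mutant lungs, and 11 of the 13 mitochondrial points lie above 0 in each mutant lung.

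The nuclear transcripts are short, and short transcripts as a class also had a median below 0. The principal transcripts of the 82 nuclear members had a median length of 786 bases. Among all 528 protein-coding genes tested with a principal transcript up to that length, the median log2 difference was -0.12, with 65.3% below 0. It was -0.01 among the 14054 longer ones. Members were not removed from either class, so the 528 include the nuclear members of that length and the shorter mitochondrial genes. The 41 members up to the same length had a median of -0.28 and the 41 longer members -0.18. The part of transcript length in the shift of the nuclear members was not tested.

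Complex I, the NADH dehydrogenase, had 35 nuclear members and a median log2 difference of -0.27. Both mutant lungs were below both wild-type lungs in 23 of the 35 and above them in 1, and 30 were below 0. Over all genes tested, both lay below in 26.9% and above in 25.7%, and 51.7% were below 0. Ndufb7 (chromosome 8, 83566671 to 83571626, GRCm38), an accessory subunit on the outer face of the inner membrane, had 599 and 576 against 799 and 821. The mutant lungs agreed closely and did not overlap the wild type, for a log2 difference of -0.46 (SE 0.14, limma adjusted p = 0.150). Ndufa11 (chromosome 17, 56717762 to 56724248), a membrane-arm subunit, had 454 and 410 against 638 and 567, a log2 difference of -0.48 (adjusted p = 0.173). Ndufs6, a subunit of the electron input module, had 484 and 422 against 637 and 579, or -0.43 (0.212). Ndufb10, in the membrane arm, was at 805 and 808 against 1019 and 957, or -0.29 (0.291). In these 4 genes every mutant lung was below every wild-type lung.

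In some other complex I subunits the groups overlapped. Ndufc2, singled out once its values were known, stood at 1817 and 2941 against 2020 and 1666, so that mutant replicate 2 alone was high. Ndufb2 was at 328 and 486 against 495 and 401, with overlapping groups (-0.16, adjusted p = 0.750).

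Complex II, succinate dehydrogenase, also serves the citric acid cycle, and all 4 of its subunit genes were measured. Sdhc (chromosome 1, 171127165 to 171150603), a membrane anchor, had 1218 and 977 against 1475 and 1499, a log2 difference of -0.45 (SE 0.16, limma adjusted p = 0.203). Sdhd, the other anchor, had 2085 and 2173 against 2331 and 2195 (-0.09, 0.755). In both anchors the mutant lungs were below the wild type, by a narrow gap in Sdhd. The iron-sulfur subunit Sdhb went the other way, with 1447 and 1709 against 1423 and 1401 (0.16, 0.599). The flavoprotein Sdha had 2673 and 2107 against 2623 and 2725 (-0.17, 0.604), where mutant replicate 2 alone was low.

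Complex III, the cytochrome bc1 complex, had 8 nuclear members and a median of -0.15, with 4 non-overlapping and lower. The share of all genes tested that were lower without overlap was 26.9%. Uqcr11 (chromosome 10, 80402997 to 80406830), a small accessory subunit, had 667 and 778 against 1021 and 900, a log2 difference of -0.41 (SE 0.16, limma adjusted p = 0.224). Uqcr10 had 977 and 1047 against 1250 and 1177 (-0.26, 0.340), and Uqcrb, a subunit near the quinone pocket, 1444 and 1797 against 2062 and 1844 (-0.28, 0.400). In these 3 small subunits the groups did not overlap. Uqcrq had 634 and 905 against 966 and 783 (-0.20, 0.654), and the large core subunit Uqcrc1 had 1899 and 1572 against 1766 and 1887 (-0.08, 0.812). In both of these the groups overlapped.

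Complex V, ATP synthase, had 17 nuclear members by name and a median of -0.22, with 8 lower and 1 higher without overlap. Among all genes tested these shares were 26.9% lower and 25.7% higher. Atp5g1 (chromosome 11, 96068852 to 96075670) is one of the genes for the c subunit of the rotating ring, which encode the same mature protein. It had 562 and 419 against 806 and 751, a log2 difference of -0.68 (SE 0.19, limma adjusted p = 0.131). This was the smallest p among the 95 genes, and the mutant lungs were below the wild type by a wide gap. Atp5g3 had 2490 and 2156 against 3020 and 2817 (-0.33, 0.275), and Atp5g2 had 1897 and 1282 against 1890 and 2055 (-0.34, 0.419). Summed over the 3 genes, the values were 4949 and 3857 against 5716 and 5623, and Atp5g1 made up 11.4% and 10.9% of the sum in the mutant against 14.1% and 13.4% in the wild type. The sum was thus lower in both mutant lungs, and the share of Atp5g1 was lower too. Of the 50-base sequences of Atp5g2, 38.3% occur in transcripts of other genes, and its pseudogene copy Gm10175 stood at 88.6% to 90.1% of its value in the 4 lungs, so that its own reads are uncertain.

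Atp5o, the stalk subunit also called OSCP, had 1412 and 1498 against 2026 and 1879 (-0.42, adjusted p = 0.170), although 41.6% of its 50-base sequences are shared with other genes. Atp5k was at 593 and 659 against 916 and 775 (-0.43, 0.212). Both were lower in each mutant lung. Atp5sl, the complex I assembly protein that carries an ATP synthase name, moved the opposite way, with 288 and 375 against 229 and 239 (0.49, 0.233).

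Complex IV, cytochrome c oxidase, had 18 nuclear members and a median of -0.27, with 9 lower and 0 higher without overlap. Among all genes tested these shares were 26.9% lower and 25.7% higher. Cox5a (chromosome 9, 57521232 to 57532424), a subunit present in all tissues, had 363 and 320 against 486 and 502, a log2 difference of -0.53 (SE 0.15, limma adjusted p = 0.145). Cox6b1, which joins the monomers of the complex, had 1537 and 1486 against 1993 and 1846 (-0.34, 0.230). The mutant lungs were below the wild type in both genes. Cox7b, an X-linked subunit, had 1477 and 2529 against 2457 and 1952, with mutant replicate 1 low and mutant replicate 2 above both wild-type lungs (-0.18, 0.757).

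The muscle isoforms of complex IV had the largest differences of any members, from low levels. Cox6a2 (chromosome 7, 128205435 to 128206387), the isoform of heart and skeletal muscle, had 18 and 38 against 72 and 62, a log2 difference of -1.32 (SE 0.40, limma adjusted p = 0.157). Cox8b (chromosome 7, 140898945 to 140900446), an isoform of muscle and brown fat, had 13 and 8 against 25 and 26, or -1.24 (0.171). Cox7a1 (chromosome 7, 30184144 to 30186078), the muscle isoform of its subunit, had 16 and 33 against 42 and 49, or -0.95 (0.264). In all 3 genes both mutant lungs were below both wild-type lungs, and none of the 3 passed. Such values rest on few reads.

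Their broadly expressed counterparts shifted less. Cox6a1 had 1554 and 1250 against 1869 and 1692 (log2 difference -0.35, adjusted p = 0.293). Cox8a had 1829 and 1515 against 2176 and 2150 (-0.38, 0.240). Cox7a2 had 1793 and 3080 against 2588 and 2226 (-0.03, 0.963), with mutant replicate 2 highest. Its relative Cox7a2l had 4994 and 5507 against 5075 and 5445 (0.00 within rounding, 0.992). Per kilobase of transcript, Cox6a2 stood at 0.973% and 2.55% of Cox6a1 against 3.23% and 3.08%. Cox8b stood at 1.09% and 0.807% of Cox8a against 1.76% and 1.85%, and Cox7a1 at 1.496% and 1.80% of Cox7a2 against 2.72% and 3.69%. Each ratio was lower in both mutant lungs.

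**Figure D2:**
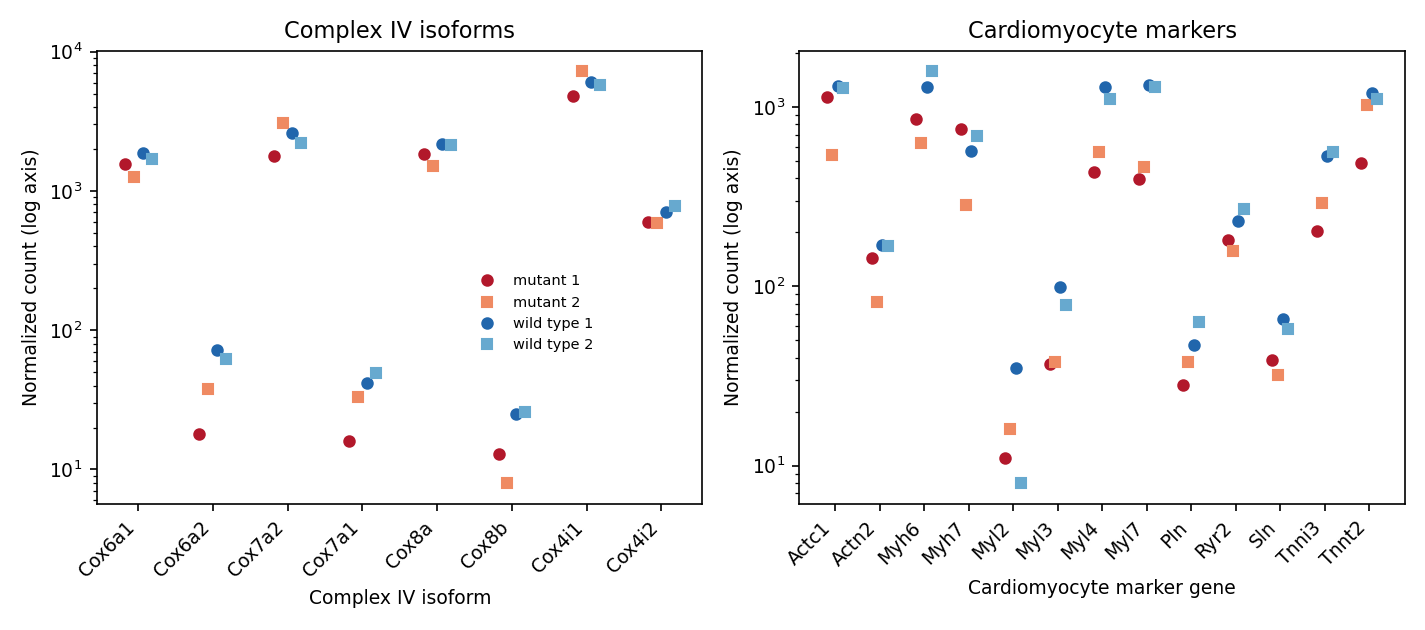
Normalized counts, on log axes, of complex IV isoforms (left) and of the 13 cardiomyocyte markers tested (right) in each lung, with red symbols for mutant and blue for wild type. Cox6a2, Cox7a1 and Cox8b lie between 8 and 72, with both mutant lungs below the wild type, and 11 of the 13 cardiomyocyte markers show the same order. That order held for 26.9% of all genes tested.

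Cardiomyocyte markers were lower beside these isoforms. Heart muscle extends along the pulmonary veins of the mouse into the lung. Of 14 cardiomyocyte markers 13 were tested, 2 fell and 0 rose, and their median log2 difference was -0.72. Over all genes tested, 0.917% fell, 1.47% rose and the median was -0.02. In 11 of 13 markers both mutant lungs were below the wild type, and in 0 above it. The shares of all genes tested were 26.9% below and 25.7% above. Myl7, an atrial myosin light chain gene, fell by 1.62 (log2), at 394 and 460 against 1333 and 1288 (limma, adjusted p = 0.0109), and Myl4, another atrial light chain gene, fell by 1.28, at 432 and 558 against 1296 and 1105 (0.0314). The summed value of the list was 4719 and 4159 in the mutant against 8185 and 8243, and Nppa, the atrial peptide gene that was not tested, was at 3 and 1 against 1 and 1. Of 8 skeletal muscle markers 5 were tested and 0 passed, with sums of 296 and 284 against 369 and 400. Ckm, the muscle creatine kinase gene, which heart also expresses, had 74 and 64 against 138 and 180 (-1.18, adjusted p = 0.0665), and Mylpf, a fast-fibre light chain gene, 31 and 30 against 45 and 30 (-0.26, 0.695). The brown fat markers Ucp1, Cidea, Adipoq and Plin1 were at 10 or less in every lung, and Ppargc1a, the one gene of that list that was tested, was higher in both mutant lungs, at 289 and 1173 against 213 and 185 (1.55, limma adjusted p = 0.230). Whether the muscle isoforms moved with the amount of heart muscle in each sample was not tested. Without Cox6a2, Cox7a1 and Cox8b the other 79 nuclear members still had a median of -0.22, with 43 lower and 3 higher without overlap.

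Cox4i2, the isoform known for lung, had 600 and 592 against 703 and 776, both mutant lungs lower (log2 difference -0.31, adjusted p = 0.290). Cox4i1, its broadly expressed counterpart, had 4814 and 7222 against 6093 and 5784, with the mutant lungs on either side of the wild type (-0.01, 0.986). Per kilobase, Cox4i2 stood at 12.8% and 8.40% of Cox4i1 against 11.8% and 13.7%, so the ratio of the mutant lungs spanned that of wild-type replicate 1. Cox6b2, known from testis, was measured at 257 and 359 against 280 and 246 (0.21, 0.631), while the germ cell markers Tnp1, Prm1 and Ddx4 were at 14 or less. Ndufa4 had 1796 and 2648 against 2857 and 2327 (-0.24, 0.592), and Ndufa4l2, a hypoxia-responsive relative, 447 and 247 against 335 and 421 (-0.18, 0.788). The groups overlapped in these 3 genes. Lung pericytes are known to express Cox4i2 and Ndufa4l2. Of 11 pericyte markers, 1 rose: Lamc3, a laminin gene, with 558 and 621 against 105 and 148 (2.23, adjusted p = 0.0122). The list sums were 18847 and 14099 against 14368 and 15381, with 5 markers higher and 1 lower without overlap. Over all genes tested, 1.47% rose, 25.7% were higher without overlap and 26.9% lower.

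The mitochondrial genome encodes the other 13 members: 7 subunits of complex I, cytochrome b of complex III, 3 core subunits of complex IV and 2 of ATP synthase. They made up 3.63% and 4.49% of the mutant library totals against 3.75% and 3.78% of the wild-type totals. Mutant replicate 2 stood above the other lungs and mutant replicate 1 slightly below them. The 82 nuclear members made up 0.623% and 0.665% against 0.767% and 0.729%, so their share was lower in both mutant lungs. Since the values were scaled before deposit, no counting interval is given for these shares. The mitochondrial ribosomal RNAs, which poly(A) selection should largely remove, made up 0.0678% and 0.141% in the mutant against 0.0730% and 0.0830%. They were highest in mutant replicate 2, and their part in the larger mitochondrial share of that lung was not tested.

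The mutant lungs were high in different stretches of the mitochondrial genome. Mutant replicate 2 was high from mt-Co1 to mt-Nd3, consecutive on the map. The subunit I gene of the oxidase, mt-Co1 (chromosome M, 5328 to 6872), had 202442 and 271980 against 211805 and 220160 (log2 difference 0.12, limma adjusted p = 0.880). Its neighbour mt-Co2, for the subunit that receives electrons from cytochrome c, had 72345 and 80844 against 70931 and 69389 (0.12, 0.812). Both ATP synthase genes were highest in that lung: mt-Atp8 had 8621 and 10989 against 7852 and 7763 (0.32, 0.376), and mt-Atp6, for the subunit that channels protons past the ring, had 77828 and 110930 against 75896 and 75353 (0.30, 0.607). In both of these, mutant replicate 1 was above the wild type as well.

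The contrast between the mutant lungs was widest in the next genes. The subunit III gene mt-Co3 (chromosome M, 8607 to 9390) had 98211 and 190785 against 122809 and 115068 (0.20, adjusted p = 0.810), so mutant replicate 1 was the lowest lung and mutant replicate 2 the highest. mt-Nd3 (chromosome M, 9459 to 9806), for a small core subunit of complex I, had 10391 and 17679 against 10618 and 10137 (0.39, 0.474), the largest difference of the 13, which came from mutant replicate 2 alone.

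Mutant replicate 1 was instead the highest lung for complex I genes outside that stretch. mt-Nd1 (chromosome M, 2751 to 3707) had 47481 and 40456 against 38916 and 40905 (log2 difference 0.14, limma adjusted p = 0.768). mt-Nd2 had 26103 and 20087 against 19052 and 19776 (0.24, 0.564), mt-Nd4l 5145 and 3860 against 3618 and 3974 (0.23, 0.527), and mt-Nd4 50788 and 44270 against 44019 and 45603 (0.08, 0.868). Of the proton-pumping subunit genes, mt-Nd5 had 28662 and 25664 against 24401 and 24745 (0.14, 0.716), with both mutant lungs above the wild type. mt-Cytb (chromosome M, 14145 to 15288), for cytochrome b, was alike in both mutant lungs, at 69601 and 69898 against 62465 and 63203 (0.15, 0.757). mt-Nd6 (chromosome M, 13552 to 14070), the one protein gene on the other strand, had 10118 and 9413 against 9777 and 9424 (0.02, 0.950), with overlapping groups.

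**Figure D3:**
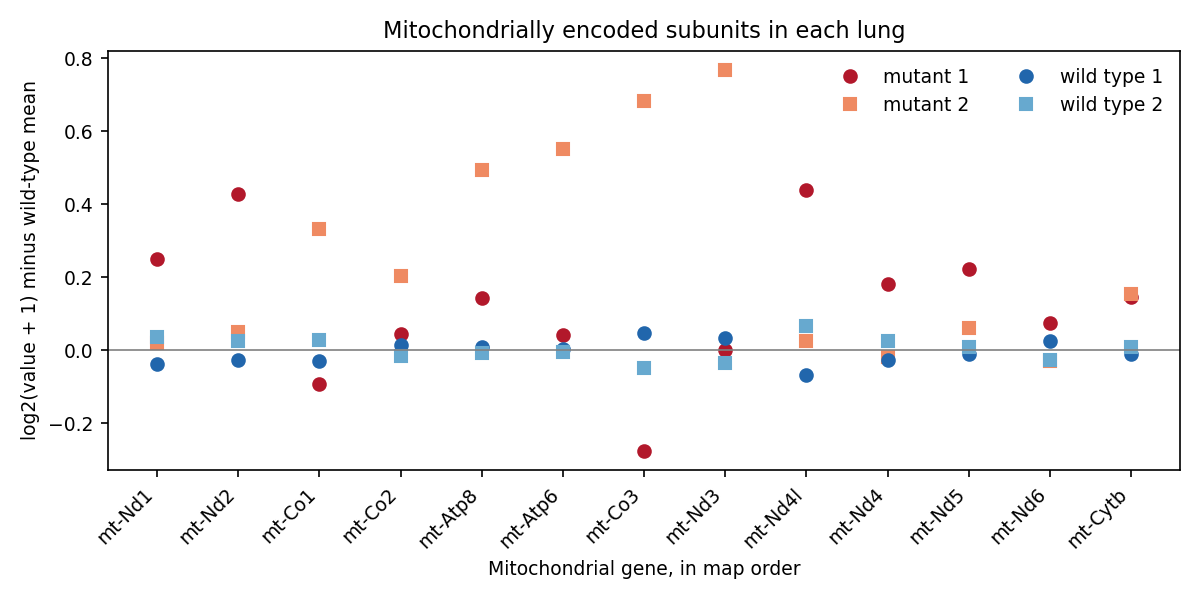
Log2(value + 1) of the 13 mitochondrially encoded members in each lung, minus the mean of the wild-type lungs, in map order. Mutant replicate 2 lies above the wild type from mt-Co1 to mt-Nd3, least at mt-Co2 and most at mt-Nd3, mutant replicate 1 is highest at mt-Nd2 and mt-Nd4l, and the wild-type lungs stay near 0.

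Summed by complex, the mitochondrial genes of complex I made up 0.916% and 0.808% of the mutant libraries against 0.802% and 0.828%, highest in mutant replicate 1. Those of complex IV made up 1.91% and 2.72% against 2.16% and 2.17%, lowest in mutant replicate 1 and highest in mutant replicate 2. Nuclear copies of mitochondrial DNA share these reads. At least 98.0% of the 50-base sequences of mt-Co2, mt-Co3, mt-Nd3, mt-Nd4l and mt-Atp6 occur in transcripts of other annotated genes, and the chromosome 1 copy of mt-Co3, Gm28437, stood at 98317 and 191013 against 122934 and 115206, which is 100.1% of the mitochondrial gene's value in each lung. The copy of mt-Nd3, Gm28438, stood at 10400 and 17691 against 10621 and 10141. The rows of 9 copies summed to 2.39% and 3.33% of the mutant library totals against 2.61% and 2.59%. With copies so close to their genes in every lung, the same reads may be counted in both rows. These shares, and those of the mitochondrial genes, are thus shares of summed values and not of reads. The 6 mitochondrial members with under 10% of such shared sequence, mt-Nd1, mt-Nd2, mt-Nd5, mt-Nd6, mt-Cytb and mt-Atp8, had a median log2 difference of 0.15, with 4 higher without overlap. Of all genes tested, 25.7% were higher without overlap. Only annotated transcripts were searched, so sharing with copies outside them was not measured. Neighbouring mitochondrial genes also overlap, mt-Atp8 and mt-Atp6 by 43 bases, and reads there cannot be assigned to 1 gene.

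The mutant lungs differed from each other among the nuclear members about as much as over all genes. Mutant replicate 2 was above mutant replicate 1 in 50 of 82 members and in 8852 of all 18436 genes, and the median absolute log2 difference between these lungs was 0.29, where all genes tested had 0.32. Cox7a2, with 1793 and 3080, and Cox7b, with 1477 and 2529, lay at the upper end, as did Atp5e (1483 and 2495), for the smallest subunit of the ATP synthase head, and Uqcrh (2973 and 4979), the hinge protein of complex III. Atp5b (9435 and 7001), the catalytic subunit of ATP synthase, lay at the other end, with Ndufv3 (622 and 407) of complex I and Atp5g2. Atp5e, Uqcrh, Atp5b and Ndufv3 were chosen once their values were known. Across the 82 nuclear genes, the difference mutant replicate 2 minus mutant replicate 1 was inversely related to log2 transcript length (Pearson r = -0.35, Spearman rho = -0.34). It was also inversely related to the difference wild-type replicate 2 minus wild-type replicate 1 (r = -0.50, rho = -0.50). Over the 14582 protein-coding genes tested the same correlations were weaker, at r = -0.06 and r = -0.08. These are descriptions across genes, which share the libraries and are not independent replicates.

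**Figure D4:**
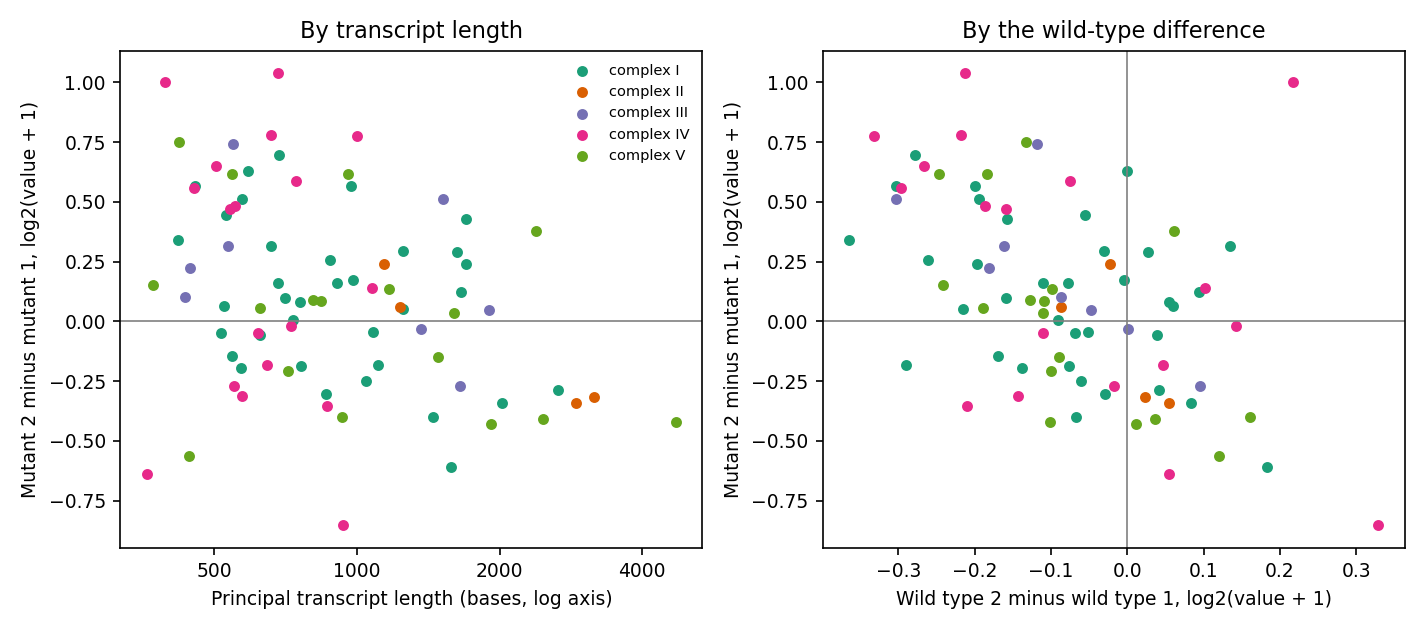
Log2(value + 1) difference between the mutant lungs (replicate 2 minus replicate 1) for each of the 82 nuclear members, against principal transcript length on a log axis (left) and against the difference between the wild-type lungs (right). The points slope downward in both panels, with r of -0.35 and -0.50.

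Leaving out 1 lung changed which members passed. When mutant replicate 1, where Xist was high, was left out, 7 of 95 members passed (7.37%), where 12.9% of all genes did, 6.43% lower and 6.5% higher. Of these, 4 were lower: Atp5g1 (log2 difference -0.89, limma adjusted p = 0.0416), Sdhc (-0.61, 0.0427), Cox8a (-0.51, 0.0455) and Cox5a (-0.62, 0.0488). The 3 higher were mt-Nd3 (0.77, 0.0410), mt-Atp8 (0.49, 0.0455) and Ndufa6 (0.46, 0.0486), a complex I subunit with 1392 and 2153 against 1569 and 1569. Without mutant replicate 2, 0 members passed and 33 had an unadjusted p under 0.05, beside 28.5% of all genes. Each of these fits rests on 1 mutant lung, which is assumed to vary like the wild type. The 3 X-linked members, Ndufa1, Ndufb11 and Cox7b, had log2 differences of -0.60, -0.30 and -0.57 between mutant replicate 1 and the wild-type mean. All 82 nuclear members had a median of -0.29 in that lung. The part of X linkage was not tested.

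Transcript levels in the wild-type lungs were compared per kilobase of the principal transcript, as the mean of both. The median over nuclear members was 1049 normalized counts per kilobase in complex I, 1079 in complex II, 1667 in complex III, 2654 in complex IV and 2933 in complex V. Complex IV spanned the widest range, from Cox8b at 70.8 to Cox4i1 at 7971. Uqcrh led complex III at 7084 and Ndufb11 complex I at 2771, while Sdhd led complex II at 1838 and Sdhc was its lowest at 469. In complex V Atp5l stood highest at 6593 and Atp5sl lowest at 98.0. The mitochondrial genes were higher, from mt-Nd4l at 12781 to mt-Co3 at 151707, with mt-Cytb at 54925 and mt-Atp6 at 111049. Every mitochondrial gene thus stood above every nuclear one, although reads are shared with nuclear copies. The order depends on the length used: per kilobase of all annotated exons the lowest genes were Ndufb2 in complex I and Uqcrc1 in complex III, and the highest in complex V was Atp5a1. Atp5l shares reads with pseudogenes, of which Atp5l-ps1 stood at 40.8% to 43.4% of its value.

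**Figure D5:**
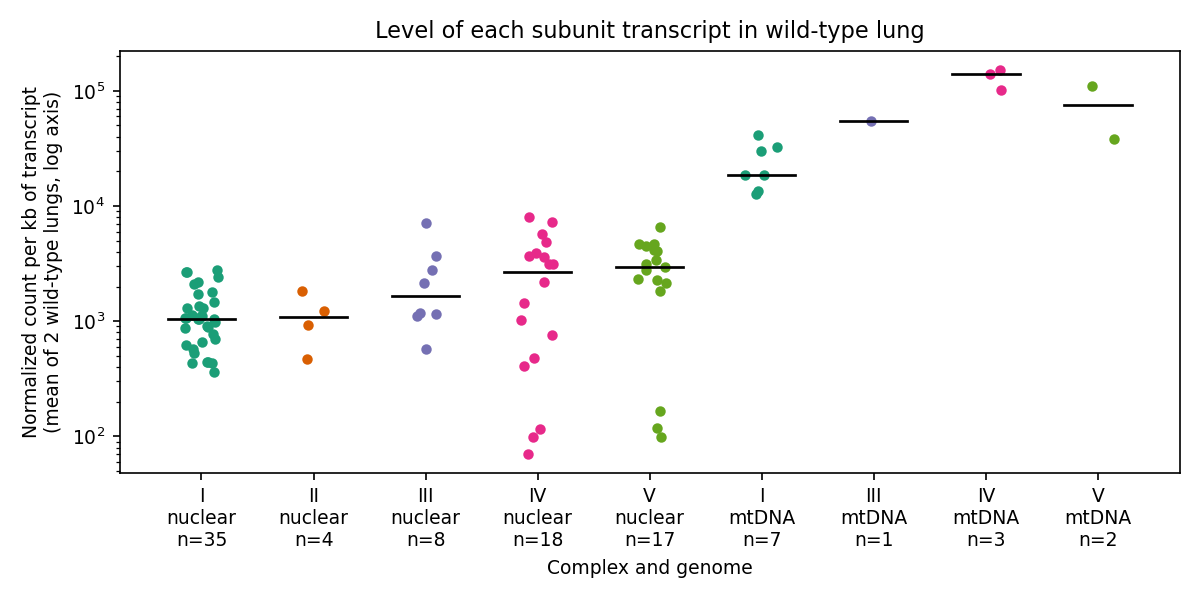
Normalized counts per kilobase of principal transcript, on a log axis, as the mean of the 2 wild-type lungs, for every member by complex and genome; black lines are medians. Nuclear medians rise from 1049 in complex I to 2933 in complex V, and every mitochondrial gene lies at or above 12781.

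Genes that build and supply the complexes were described by lists. Of 49 assembly factors 45 were tested, 0 passed, and the median log2 difference was -0.26, with 25 lower and 2 higher without overlap. Over all genes tested, 2.39% passed, 26.9% were lower without overlap and 25.7% higher. All 4 complex II assembly factors were lower in both mutant lungs, among them Sdhaf3 with 105 and 107 against 189 and 149 (-0.66, limma adjusted p = 0.171) and Sdhaf4 with 163 and 209 against 301 and 265 (-0.61, 0.177). Bcs1l, which inserts the iron-sulfur protein into complex III, had 90 and 74 against 162 and 137 (-0.86, 0.119). Coa3, which helps build the core of complex IV, had 538 and 557 against 766 and 726 (-0.45, 0.164). For complex I, Ndufaf7, a methyltransferase, had 298 and 294 against 398 and 389 (-0.41, 0.213), and for complex V Atpaf1, a chaperone of the head, had 410 and 443 against 506 and 529 (-0.28, 0.346). Of 18 genes for copying and transcribing mitochondrial DNA 0 passed, and the median was -0.14. Polg, the mitochondrial DNA polymerase, had 1722 and 2134 against 1235 and 1501 (0.49, 0.205), and Tefm, a transcription elongation factor, 130 and 172 against 200 and 199 (-0.41, 0.329).

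Of 16 regulators tested 0 passed, with a median of 0.19. Ppargc1a, a coactivator of mitochondrial biogenesis, was above the wild type in both mutant lungs, as given with the brown fat markers, and mutant replicate 2 stood far above the other lungs. Sirt1, a deacetylase that acts on it, had 1084 and 1218 against 831 and 832 (0.47, 0.154), and Gabpb1, a partner of the ETS factor GABPA, had 552 and 475 against 694 and 680 (-0.42, 0.205). Of 20 citric acid cycle and pyruvate dehydrogenase genes 1 rose, where 1.47% of all genes tested did, and the median was 0.00 within rounding. The gene that rose was Pdk4, a kinase that switches off pyruvate dehydrogenase, with 1578 and 1423 against 309 and 252 (2.42, standard error 0.17, adjusted p = 0.00597). Of 21 genes for electron carriers, coenzyme Q synthesis and adenine nucleotide or phosphate transport 0 passed, with a median of -0.19. Coq8a, needed for coenzyme Q synthesis, had 407 and 348 against 203 and 214 (0.85, 0.0687), and Etfb, which carries electrons from fatty acid oxidation, 181 and 198 against 352 and 288 (-0.75, 0.107). Of 5 further subunits and partners outside the name rule 0 passed. They included Atpif1, the inhibitor of ATP synthase, at 841 and 985 against 1378 and 1117 (-0.45, 0.225), and Cyc1, cytochrome c1 of complex III, at 1195 and 1326 against 1443 and 1364 (-0.16, 0.572).

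Markers of other cell types gave the setting of these shifts. The 6 lung epithelial markers had 0 passing and a median of -0.24, with summed values of 264171 and 217982 against 321398 and 306408. Ager, of alveolar type 1 cells, had 15977 and 18969 against 26920 and 27795 (-0.65, limma adjusted p = 0.147), and Hopx 7406 and 8348 against 6793 and 6824 (0.21, 0.495). The 3 endothelial markers had sums of 21047 and 10327 against 14819 and 16141, on either side of the wild type in the mutant lungs, with Kdr at 3560 and 1978 against 4536 and 4492 (-0.77, 0.209) and Pecam1 at 9682 and 4888 against 5100 and 5935 (0.32, 0.623). The 4 erythroid genes had sums of 378268 and 450884 against 404691 and 470090, with Hba-a1 at 124468 and 95801 against 114396 and 147335 (-0.25, 0.697). The part of cell makeup in the shift of the nuclear members was not tested.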

How the data were processed

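RNA of the left lung lobe was measured in 4 lungs, 2 per genotype, from poly(A) libraries of the TruSeq Stranded type, 3 micrograms of RNA each, per the labels' protocols. Per the submitters' processing notes, FastQC, STAR 2.4.0a, featureCounts 1.5.1 of Subread and DESeq2 1.14.1 were used, with mm10 and GRCm38. How strand and multiply aligned reads were counted is not given in the sources. The values are a score: counts per gene that the authors normalized between libraries and rounded to whole numbers before they were deposited. No count model was therefore run. A value near 10 rests on few reads.

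Genes with a mean of at least 10 were tested with limma 3.58.1 (R 4.3.3) on log2(value + 1) with a mean-variance trend, two-sided, with Benjamini-Hochberg adjustment over 18436 genes and a threshold of 0.05. Differences are mutant minus wild type on that scale, which understates low genes. On simulated data with 18436 genes, 77% of 100 genes changed by 1 on the log2 scale and 96% of 100 changed by 2 were recovered. The simulation gave every gene and lung the same preset spread, not a spread measured in these lungs. It therefore does not give the power of this comparison. Medians and counts of lists carry no test. Values of 2 genes that the naming rule or a count would have brought in are not reported here. The members and gene lists were chosen with earlier results of these data known. Named were, besides isoform sets and all mitochondrial genes, the 4 nuclear genes of each complex with the smallest p, the highest and lowest per kilobase of exon, and of each other list those that passed or the 2 with the smallest p. A further 10 members were named once their values were known. Shared 50-base sequences, transcript lengths (principal transcript) and exons come from GENCODE M21 (GRCm38), promoters from RefSeq; promoter windows were not found for 14 members. Coordinates are the deposited table's. Python 3.11.15 with pandas 2.3.3 and matplotlib 3.10.9 was used. Alternatives were other pseudocounts, filters, scalings, variance models, a replicate block and leaving out each lung.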

Additional observations from a re-analysis of the deposited data

How the results depend on the processing

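Among the 14 alternatives the number of members that passed stayed at 0, except without mutant replicate 1, where it was 7, so the counts of members without a given replicate ran from 0 to 7. The number of all genes that passed, 440, became 0 when low genes were kept (4876 had p under 0.05 unadjusted), 72 without the mean-variance trend and 766 with the replicate block (0 members), and leaving out each lung gave 0 to 2385 (at an unadjusted p under 0.05, 5249 without mutant replicate 2, 917 without wild-type replicate 1 and 1133 without wild-type replicate 2). No label says that a replicate number marks a shared litter or day, so the numbers were not taken as pairs. The deviations of same-numbered lungs had a correlation of -0.058 across genes. With 2 lungs per genotype this correlation cannot show whether the numbers mark pairs. The nuclear median of -0.24 became -0.31 after quantile normalization, -0.32 with equal library totals and -0.31 with equal totals outside the mitochondrial rows, and ran from -0.30 to -0.17 when each lung was left out. The mitochondrial median of 0.15 became 0.12, 0.072 and 0.077 under the same scalings, and 9, 12 and 12 of the 13 genes stayed above 0. Of 809 pairs of a member named in the text and an alternative, 768 kept direction and side of the threshold, 7 passed only without mutant replicate 1, and 34 changed sign. Without mutant replicate 1 the sign changed in Atp5e (0.34), Atp5l (0.27), Cox4i1 (0.28), Cox7a2 (0.36), Cox7a2l (0.067), Cox7b (0.21), Ndufa4 (0.038), Ndufb2 (0.13), Uqcrh (0.36), Uqcrq (0.057), mt-Nd4 (-0.017) and mt-Nd6 (-0.028). Without mutant replicate 2 the sign changed in Atp5a1 (0.075), Atp5b (0.087), Cox6b2 (-0.030), Ndufa4l2 (0.25), Ndufa6 (-0.17), Ndufc2 (-0.014), Uqcrc1 (0.057), mt-Co1 (-0.093) and mt-Co3 (-0.28). Without wild-type replicate 1 the sign changed in Atp5e (0.032), Atp5l (0.051), Cox4i1 (0.028), Cox7a2 (0.078) and Uqcrh (0.050). Without wild-type replicate 2 the sign changed in Cox7a2l (0.047) and mt-Nd6 (-0.0026). Over the lungs left out in turn these genes ranged from -0.33 to 0.075 for Atp5a1, -0.34 to 0.087 for Atp5b, -0.41 to 0.34 for Atp5e, -0.35 to 0.27 for Atp5l, -0.30 to 0.28 for Cox4i1, -0.030 to 0.45 for Cox6b2, -0.42 to 0.36 for Cox7a2, -0.074 to 0.067 for Cox7a2l, -0.57 to 0.21 for Cox7b, -0.52 to 0.038 for Ndufa4, -0.60 to 0.25 for Ndufa4l2, -0.17 to 0.46 for Ndufa6, -0.44 to 0.13 for Ndufb2, -0.014 to 0.68 for Ndufc2, -0.22 to 0.057 for Uqcrc1, -0.38 to 0.36 for Uqcrh, -0.46 to 0.057 for Uqcrq, -0.093 to 0.33 for mt-Co1, -0.28 to 0.68 for mt-Co3, -0.017 to 0.18 for mt-Nd4 and -0.028 to 0.076 for mt-Nd6. After quantile normalization the sign changed in mt-Co2 (-0.060), mt-Cytb (-0.14), mt-Nd4 (-0.11) and mt-Nd6 (-0.083). With equal totals the sign changed in mt-Nd6 (-0.055). With equal totals outside the mitochondrial rows the sign changed in mt-Nd6 (-0.050). The cause of these changes was not tested.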
